A study of Mus musculus with 63 samples.

Results

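Neural progenitor cells carrying an inverted promoter of Meteor, a long non-coding RNA gene, were compared with wild-type neural progenitor cells by RNA sequencing. The 9 libraries were chosen by their labels, from 63 in the series. All came from R1, a male mouse embryonic stem cell line, differentiated for 4 days in a neural medium without serum. The wild-type group holds 2 lines, WT1 and WT2, with 3 libraries each. The inversion group, pInv, is 1 line with 3 libraries, so the inversion and any other difference of that line cannot be told apart. A second edit of the same promoter, its deletion in lines pKO1 and pKO2 with 3 libraries each, was compared with pInv as well, and its libraries entered the fit and the estimate of the spread. The labels do not say whether replicate libraries came from separate differentiations, so p-values measure the spread between these libraries, which may be technical.

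Eomes is a T-box transcription factor of the primitive streak, the embryonic structure from which mesoderm and endoderm arise. Its transcription is induced by Nodal, a secreted ligand of the TGF-beta family that acts through activin receptors, the co-receptor Tdgf1 and Smad2/3. Cells that take the neural path normally shut down Nodal signalling, Eomes and the streak programme while they turn on Sox1 and Pax6. Meteor is transcribed from the region next to Eomes. In the deposited gene table that region is represented by a row the authors named Platr11, a long non-coding RNA that the RefSeq annotation places beside Eomes. No source used here says whether the Platr11 row and Meteor are the same transcript.

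The start-site windows of Eomes, the gene named in the series title, and of Usp26, the one annotated protein-coding gene that passed the test, are shown to place them. They run from 250 bases before to 50 bases after the start and come from RefSeq on build GRCm38.p6, whereas the counts were made on mm9. Capitals mark CG dinucleotides. The Eomes window lies at chr9:118477939-118478238 on the plus strand, and the Usp26 window at chrX:51801184-51801483 on the minus strand.
Eomes: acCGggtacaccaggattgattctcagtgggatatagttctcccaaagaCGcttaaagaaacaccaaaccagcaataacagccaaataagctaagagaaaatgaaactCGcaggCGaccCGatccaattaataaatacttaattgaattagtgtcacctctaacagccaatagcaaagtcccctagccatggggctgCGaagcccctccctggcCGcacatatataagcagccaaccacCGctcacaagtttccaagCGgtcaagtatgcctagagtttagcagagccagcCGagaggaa
Usp26: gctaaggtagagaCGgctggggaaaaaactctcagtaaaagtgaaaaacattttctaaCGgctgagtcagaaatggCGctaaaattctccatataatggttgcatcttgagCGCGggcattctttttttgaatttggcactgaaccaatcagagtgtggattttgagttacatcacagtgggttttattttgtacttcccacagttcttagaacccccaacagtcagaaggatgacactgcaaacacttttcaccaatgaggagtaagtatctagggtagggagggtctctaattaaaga
The Eomes window holds 10 CG dinucleotides, and 43.5% of the 32851 mouse windows of this length hold at least as many. The Usp26 window holds 5, and 62.0% hold at least as many. The median window holds 7.

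The 9 libraries held 10035831 to 18553323 estimated counts. One row, annotated to no gene name, took 1.93% to 4.47% of the counts in pInv and 1.83% to 4.07% in wild type. Some neural and some pluripotency genes were abundant, so the labelled cell type was only in part borne out by its markers. In TPM, a unit scaled for transcript length and library total, Sox1 averaged 56.7 in wild type and 79.8 in pInv, and Pax6 13.1 and 18.5. On the same scale Pou5f1, the pluripotency factor Oct4, averaged 436 in wild type and 492 in pInv. Other markers of both kinds stood lower. Of the neural progenitor markers, Hes5 averaged 5.32 in wild type and 3.77 in pInv, and Nes 8.55 and 9.51. Of the pluripotency markers, Nanog averaged 172 in wild type and 90.8 in pInv, Zfp42 21.4 and 18.4, and Esrrb 8.56 and 4.48. In these bulk samples fewer cells of a type and less RNA per cell cannot be told apart.

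The edited locus was read first. Levels below are in CPM, counts scaled to one common library total, and are not scaled for length. Platr11 stood at 4.43, 7.12 and 6.12 CPM in WT1 and at 5.35, 5.16 and 7.29 CPM in WT2. It had 0 counts in each of the 3 pInv libraries. The groups did not overlap. Against 474 counts summed over the 6 wild-type libraries, 0 counts in pInv allow at most 1.64% of the wild-type level (exact 95% interval, counting error only). With a set floor of 3 counts over the pInv group in place of 0, Platr11 was 75.5-fold lower. The floor was a choice, so 75.5 is not a limit at 95% confidence. The fall was called by edgeR's quasi-likelihood test with Benjamini-Hochberg adjustment (adjusted p = 0.00457). In the pKO libraries Platr11 stood between 0 and 0.37 CPM.

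Eomes was low in all 9 libraries and its wild-type range spanned the pInv libraries. It read 4.43, 4.77 and 2.49 CPM in WT1, 1.31, 1.21 and 2.30 CPM in WT2, and 2.94, 2.54 and 1.60 CPM in pInv. WT1 was high, WT2 low and pInv between them. The log2 fold change of pInv against the mean of both wild-type lines was -0.06 (95% interval -0.92 to 0.80, adjusted p = 0.983 by edgeR). That interval holds changes of just under 2-fold in either direction. The log2 difference was -0.71 against WT1 alone and 0.59 against WT2 alone. None of the other measured genes around Eomes was called either. Cmc1, a mitochondrial protein gene, differed by -0.29 (95% interval -0.67 to 0.09), Azi2, an adaptor of interferon signalling, by -0.17, Golga4, a Golgi tether, by -0.08, Itga9, an integrin, by -0.18 and Ctdspl, a phosphatase, by 0.00. The locus gene 4933432G23Rik was read in 1 of 9 libraries, at 0.32 CPM.

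The promoter deletion gave a different level of Eomes from the inversion. In pKO1 it stood at 24.1, 25.1 and 13.7 CPM and in pKO2 at 9.49, 25.8 and 8.35 CPM. All 6 libraries lay above all 3 pInv libraries. Eomes was lower in pInv than in pKO by 2.87 on the log2 scale (adjusted p = 0.00586 by edgeR), and was called against each deletion line alone (log2 -3.13, adjusted p = 0.00997, and -2.61, adjusted p = 0.00407). Without pInv replicate 3 the adjusted p was 0.0528. Platr11 was at or near 0 under both edits.

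**Figure D1:**
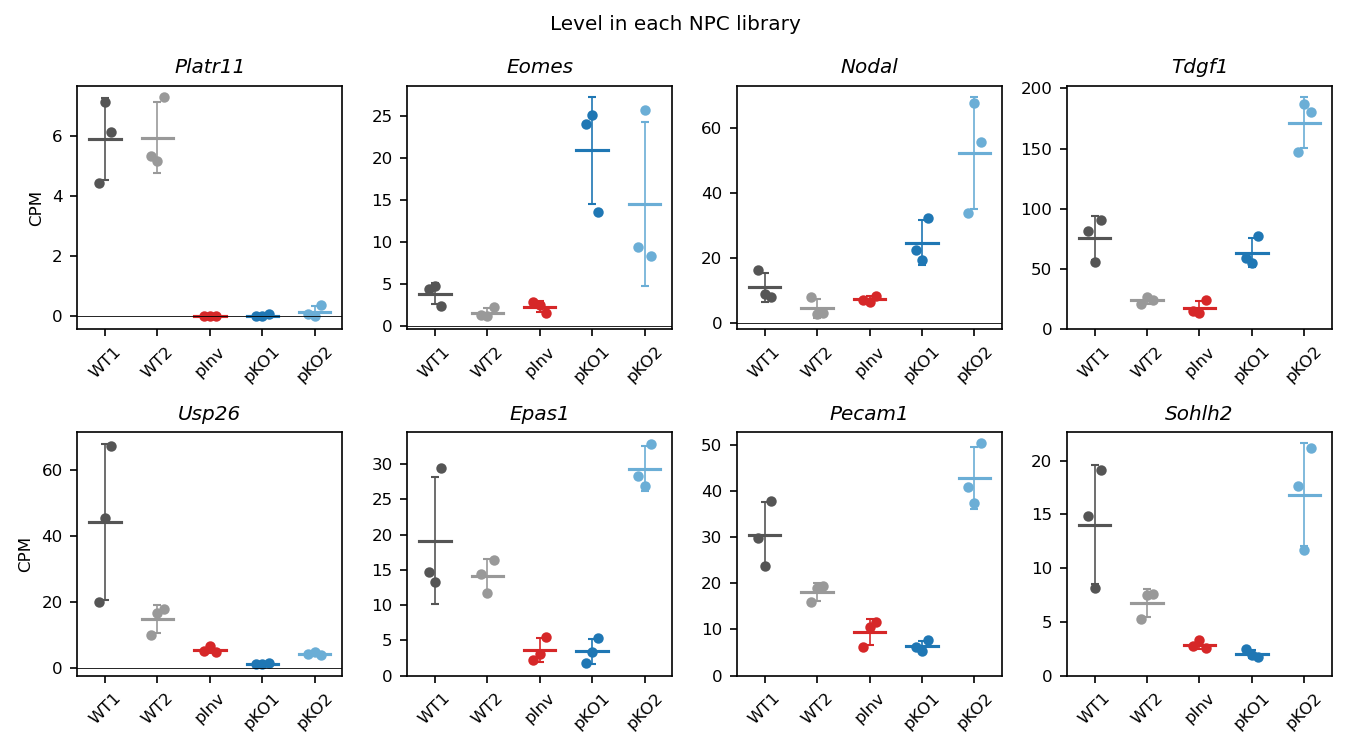
Level in CPM of 8 genes in each NPC library, by line. Points are libraries, the bar is the mean of 3 libraries and the error bar 1 SD. Platr11 was at 0 in pInv, Eomes in pInv fell among the wild-type libraries and below the pKO libraries, and Usp26, Epas1, Pecam1 and Sohlh2 in pInv lay below every wild-type library.

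Across the transcriptome, 2 of 14511 genes tested were called between pInv and wild type, which is 0.0138%. Both were lower in pInv, and none was higher. At an unadjusted p under 0.05 there were 1015 genes (6.99%), 496 of them higher (3.42%) and 519 lower (3.58%), and DESeq2 on the same counts called 55 (0.379%), 9 higher and 46 lower. The 3 pInv libraries lay outside the range of all 6 wild-type libraries for 340 genes (2.34%), 169 of them lower (1.16%). The 95% interval lay within a 2-fold change in either direction for 10139 genes (69.9%).

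The second called gene was Usp26, an X-linked deubiquitinase gene known for expression in the male germline. It read 19.9, 45.6 and 67.3 CPM in WT1, 10.1, 16.7 and 18.0 CPM in WT2 and 5.12, 6.61 and 5.08 CPM in pInv. All 3 pInv libraries were below all 6 wild-type libraries, and WT1 was above WT2. It fell by 2.19 on the log2 scale (SE 0.33, adjusted p = 0.0333 by edgeR). The call was not kept against WT2 alone (log2 -1.41, adjusted p = 1.00), in the 9 libraries alone (adjusted p = 0.135) or on leaving out any 1 pInv library, WT1 replicate 3 or WT2 replicate 2 or 3 (adjusted p = 0.0535 to 0.389). In serum-grown stem cells of the same lines, libraries this contrast did not use, Usp26 stood at 8.34 to 28.7 CPM in wild type and 3.54 to 4.25 CPM in pInv (log2 -1.85, adjusted p = 0.0952). In 2i, another culture state of these stem cells, the groups overlapped. Usp26 read 1.23 to 11.5 CPM in wild type and 1.51 to 4.22 CPM in pInv there. In pKO NPCs Usp26 stood lower than in pInv NPCs, at 1.22 to 5.03 CPM.

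The 6 genes next to the threshold, named after their values were seen, had adjusted p values of 0.0592 to 0.0664 and were all lower in pInv. Epas1, a hypoxia-responsive transcription factor, read 14.7, 13.3 and 29.5 CPM in WT1, 14.5, 11.7 and 16.4 CPM in WT2 and 2.18, 3.05 and 5.46 CPM in pInv. The groups did not overlap, and the log2 difference was -2.22 (SE 0.37). Pecam1, an adhesion molecule of endothelium that stem cells also express, read 23.6 to 37.8 CPM in WT1, 15.9 to 19.5 CPM in WT2 and 6.28 to 11.6 CPM in pInv (log2 -1.31). Sohlh2, a germ cell transcription factor, read 5.26 to 19.11 CPM in wild type and 2.54 to 3.34 CPM in pInv (log2 -1.76). Pnma5, an X-linked gene, read 3.68 to 6.65 CPM in wild type and 0.68 to 1.38 CPM in pInv (log2 -2.36). For these genes pInv lay below both wild-type lines, and DESeq2 called all of them. All 6 were called by edgeR against WT1 alone, and none against WT2 alone or in the 9 libraries alone. In serum-grown stem cells pInv was also lower for Epas1 (log2 -1.49, adjusted p = 0.000876 by edgeR) and Pnma5 (-2.78, 1.69e-05). Sohlh2 (-1.10, 0.0706) and Pecam1 (-0.42, 0.978) were not called there. In 2i-grown stem cells Epas1 read 98.4 to 127 CPM in wild type and 48.2 to 57.7 CPM in pInv. Pnma5 was not lower in pInv there, at 11.9 to 24.3 CPM in wild type and 18.8 to 31.4 CPM in pInv. Sohlh2 read 118 to 150 and 126 to 135 CPM in 2i, and Pecam1 269 to 431 and 237 to 264 CPM. The 2i differences were not tested.

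The deletion lines were split for several of these genes. Epas1 stood at 1.78 to 5.29 CPM in pKO1 and at 26.8 to 32.9 CPM in pKO2. Pecam1 stood at 5.33 to 7.59 CPM in pKO1 and at 37.3 to 50.4 CPM in pKO2, and Sohlh2 at 1.71 to 2.43 CPM in pKO1 and 11.7 to 21.2 CPM in pKO2. pInv lay near pKO1 for all 3 genes. The difference between the deletion lines was not tested for them.

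For Sgk1 and Tdgf1, the other genes of the 6, WT1 lay above both WT2 and pInv. Sgk1, a kinase induced by serum and glucocorticoids, read 89.0 to 105 CPM in WT1, 32.8 to 48.1 CPM in WT2 and 27.9 to 34.4 CPM in pInv. The pInv libraries overlapped WT2. Tdgf1 read 81.3, 55.5 and 90.2 CPM in WT1, 20.8, 26.9 and 24.0 CPM in WT2 and 15.2, 12.9 and 24.1 CPM in pInv. Its log2 difference was -2.12 against WT1 and -0.46 against WT2. In pKO, Sgk1 read 63.4 to 120 CPM and Tdgf1 54.5 to 187 CPM.

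**Figure D2:**
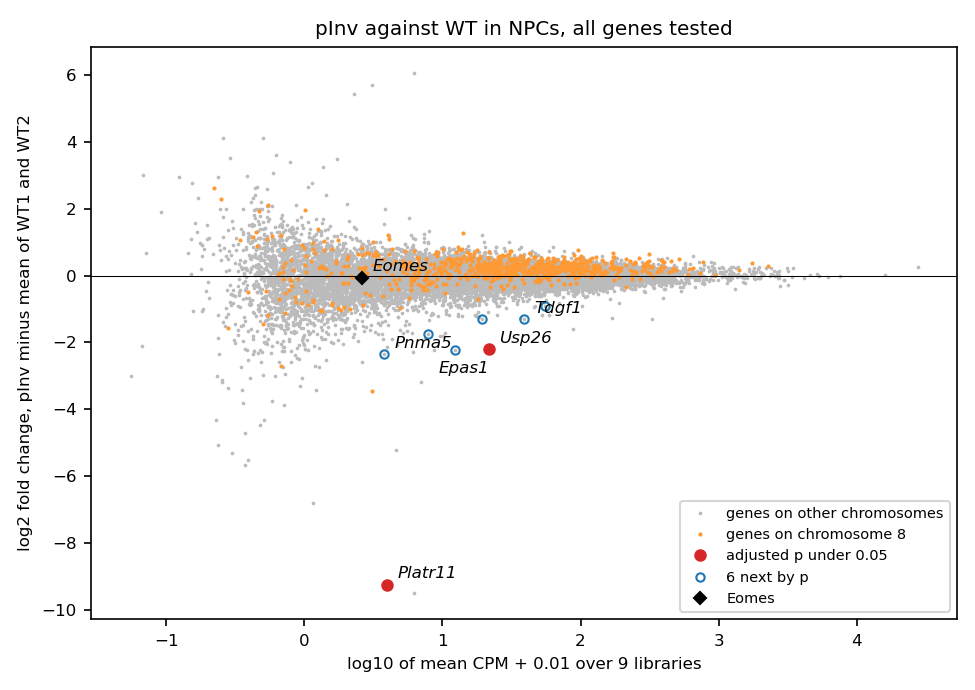
Each point is 1 of the genes tested: log2 fold change of pInv against the mean of both wild-type lines on the y axis, and mean level over the 9 libraries on the log10 x axis. Red marks the 2 genes with adjusted p under 0.05, blue rings the 6 next by p, and orange the genes of chromosome 8, which lie mostly above 0.

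Genes of the neural path did not pass the test in either direction. Of 28 neural progenitor genes 0 were called, 19 being higher and 9 lower in pInv, with a median log2 fold change of 0.21 against 0.01 over all genes. None of the 28 passed an unadjusted p under 0.05 and DESeq2 called 0. Sox1, the first marker of neural commitment, read 108, 58.7 and 79.5 CPM in WT1, 304, 105 and 244 CPM in WT2 and 312, 83.4 and 245 CPM in pInv. Replicate spread was wide in WT2 and pInv, and all 3 groups overlapped. Replicate 2 read lowest in each of these lines, and in pKO1 and pKO2 as well. Pax6, a transcription factor of neuroectoderm, read 18.3 to 22.2 CPM in WT1, 34.0 to 49.1 CPM in WT2 and 31.1 to 59.5 CPM in pInv. Both genes sat near WT2, with log2 differences of -0.03 and 0.05 against that line and 1.38 and 1.17 against WT1. Sox2, shared by neural and pluripotent cells, differed by 0.21 (95% interval -0.23 to 0.65), and Nes, an intermediate filament of progenitors, by 0.20 (95% interval -0.42 to 0.82).

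Regional and neuronal genes gave the same count. The 9 tested forebrain genes had 0 calls and a median of 0.55, with 8 of 9 higher in pInv. The median was 0.93 against WT1 and 0.14 against WT2. Of 22 neuronal genes 0 were called by edgeR or DESeq2, and 3 had an unadjusted p under 0.05, all higher (3.42% of all genes). The median of the 22 was 0.13, with 0.29 against WT1 and -0.01 against WT2. Tubb3, a neuronal tubulin, read 35.2 to 124 CPM in wild type and 76.2 to 154 CPM in pInv (log2 0.62, adjusted p = 0.686). The other neuronal markers differed less, Dcx by 0.48, Stmn2 by 0.20, Elavl3 by 0.155 and Map2 by -0.04, and none was called. Vax1, a ventral forebrain and eye regulator named after its values were seen, was at 0 to 0.30 CPM in wild type and 0.94 to 2.25 CPM in pInv (adjusted p = 0.31). Cdh4, a neural cadherin likewise named afterwards, read 7.33 to 16.6 CPM in wild type and 20.03 to 24.4 CPM in pInv (log2 0.89, adjusted p = 0.27). DESeq2 called both Vax1 and Cdh4.

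Nodal pathway genes were read by role. Among 5 genes for ligands and their processing, 0 were called. Nodal itself read 16.2, 8.88 and 8.0 CPM in WT1, 7.98, 2.64 and 3.00 CPM in WT2 and 7.03, 6.46 and 8.38 CPM in pInv. The pInv libraries lay within the wild-type range, with a log2 difference of 0.05 (95% interval -0.67 to 0.77). Among 8 receptor and effector genes 0 were called by edgeR, while DESeq2 called 1, Tdgf1, as lower (0.379% of all genes either way). Among 8 antagonists and targets 0 were called. Lefty2, a feedback inhibitor of Nodal, read 12.5 to 17.3 CPM in WT1, 1.11 to 4.89 CPM in WT2 and 4.17 to 5.23 CPM in pInv. The median of the antagonists and targets was -0.83 against WT1 and 0.59 against WT2, so its direction followed the wild-type line chosen.

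Against the promoter deletion lines, several of these genes were lower in pInv. Over all genes, 127 of 14511 were called between pInv and pKO (0.875%), 62 higher (0.427%) and 65 lower (0.448%) in pInv. Nodal stood at 19.3 to 67.6 CPM in pKO (log2 -2.30, adjusted p = 0.00856), Tdgf1 at 54.5 to 187 CPM (-2.59, 4.86e-05) and Lefty2 at 5.68 to 40.9 CPM (-1.97, 0.0254). For each of these 3 genes every pKO library lay above every pInv library, as for 2.3% of all genes. The 3 largest falls in pInv against pKO were in Foxa2, an endoderm factor, by 6.44, in T, the streak factor Brachyury, by 5.20, and in Fgf8, a streak ligand, by 4.86, all on the log2 scale. Foxa2 had 1 count in all in pInv and 225 in pKO, so its level in pInv was 0.82% of that in pKO with an exact 95% interval of 0.021% to 4.64% (counting error only). Its fitted change ran from -8.34 to -5.76 on leaving out 1 library. T read 0.89, 1.45 and 0.56 CPM in pInv and 5.94 to 86.0 CPM in pKO. The 3 largest rises were in Xlr3a (log2 2.46) and Nxf3 (2.35), X-linked germline genes, and Penk (1.98), a neuropeptide precursor. Nxf3 read 14.2 to 19.3 CPM in pInv and 1.28 to 7.15 CPM in pKO.

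The deletion lines weighed unequally in these counts. With pKO1 alone 17 genes were called and with pKO2 alone 411. Foxa2 and Fgf8 were called against either line, and T was called against pKO2 (log2 -5.16) but not pKO1 (-5.25, adjusted p = 0.0603). Nxf3 was called against either line, Xlr3a against pKO1 (log2 3.69) but not pKO2 (1.23, adjusted p = 0.283), and Penk against pKO2 (2.24) but not pKO1 (1.72, adjusted p = 0.159). Nodal and Lefty2 were not called against pKO1 alone (adjusted p = 0.0979 and 0.357). Leaving out pInv replicate 3 left 16 calls in all and Eomes and Nodal (adjusted p = 0.0528 each) and Fgf8 (0.0741) were then not called. T and Foxa2 were not called on leaving out any 1 pInv library (adjusted p = 0.0719 to 0.114), nor were Lefty2 and Xlr3a (0.0524 to 0.11), and Penk was not called without pInv replicate 2 or 3 (0.0805 and 0.088). Lefty2 was also lost without pKO1 replicate 3 (0.0561), and Xlr3a without pKO1 replicate 1 or 3 (0.0517 and 0.0561). Tdgf1 and Nxf3 were called with any 1 library of pInv or pKO left out. Of the 62 genes higher in pInv, 49 lay on chromosomes 8 and 11, against 3 of the 65 lower and 1927 of all 14511 tested. The chromosome 11 median against wild type was -0.38 in pKO and -0.03 in pInv. That of chromosome 8 was -0.01 in pKO and 0.23 in pInv. Without the genes of those chromosomes, 52 were called, 13 higher and 39 lower. In pInv against wild type, 0 of the 127 were called.

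Streak and endoderm genes were not called against wild type. Of 15 streak genes 0 were called by edgeR or DESeq2 and none had an unadjusted p under 0.05. T read 2.22, 19.7 and 2.04 CPM in WT1, 1.05, 2.06 and 0.80 CPM in WT2 and 0.89, 1.45 and 0.56 CPM in pInv. One WT1 library was far above the others. Of 15 definitive endoderm genes 0 were called and 1 had an unadjusted p under 0.05, being higher (3.42% of all genes). Foxa2 read at most 1.38 CPM in any of the 9 libraries. Of 16 mesoderm and vascular genes 0 were called, 4 had an unadjusted p under 0.05, all lower (3.58% of all genes), and DESeq2 called 1 (0.379% of all genes).

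Some pluripotency genes were abundant in both genotypes. Pou5f1 read 188 to 336 CPM in wild type and 216, 394 and 333 CPM in pInv (log2 0.27, 95% interval -0.15 to 0.69). Of 17 naive genes 0 were called, 16 were lower in pInv and the median log2 fold change was -0.58. That median was -1.10 against WT1 and -0.06 against WT2. Nanog read 306, 192 and 368 CPM in WT1, 171, 111 and 196 CPM in WT2 and 139, 64.3 and 161 CPM in pInv (log2 -0.82, adjusted p = 0.596). Esrrb read 16.1 to 52.5 CPM in WT1, 9.64 to 16.0 CPM in WT2 and 7.44 to 23.3 CPM in pInv. DESeq2 called 0 of the 17, and 3 had an unadjusted p under 0.05, all lower (3.58% of all genes). Among 10 tested genes of the 2-cell-like state, 0 were called against wild type by either tool. Zscan4f, of that state, read 4.78 to 7.48 CPM in WT1, 1.84 to 2.2 CPM in WT2 and 1.60 to 3.67 CPM in pInv.

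Germline genes were the one list with a call, among lists chosen with earlier results of these data known. Of 23 tested, 1 was called, Usp26, against 0.0138% of all genes; 21 were lower in pInv and the median was -0.72. The median was -1.07 against WT1 and -0.41 against WT2. An unadjusted p under 0.05 was reached by 9, all lower (3.58% of all genes), and 4 lay below every wild-type library (1.16% of all genes). Xlr3a, an X-linked multicopy family member whose reads may be shared with its near copies, read 5.0 to 20.4 CPM in wild type and 1.84 to 2.73 CPM in pInv (log2 -2.22, adjusted p = 0.202). Mael, a piRNA pathway gene, read 9.49 to 26.9 CPM in wild type and 6.46 to 7.63 CPM in pInv (log2 -1.16, adjusted p = 0.266). DESeq2 called 5 of the 23, all lower, and 0.379% of all genes.

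**Figure D3:**
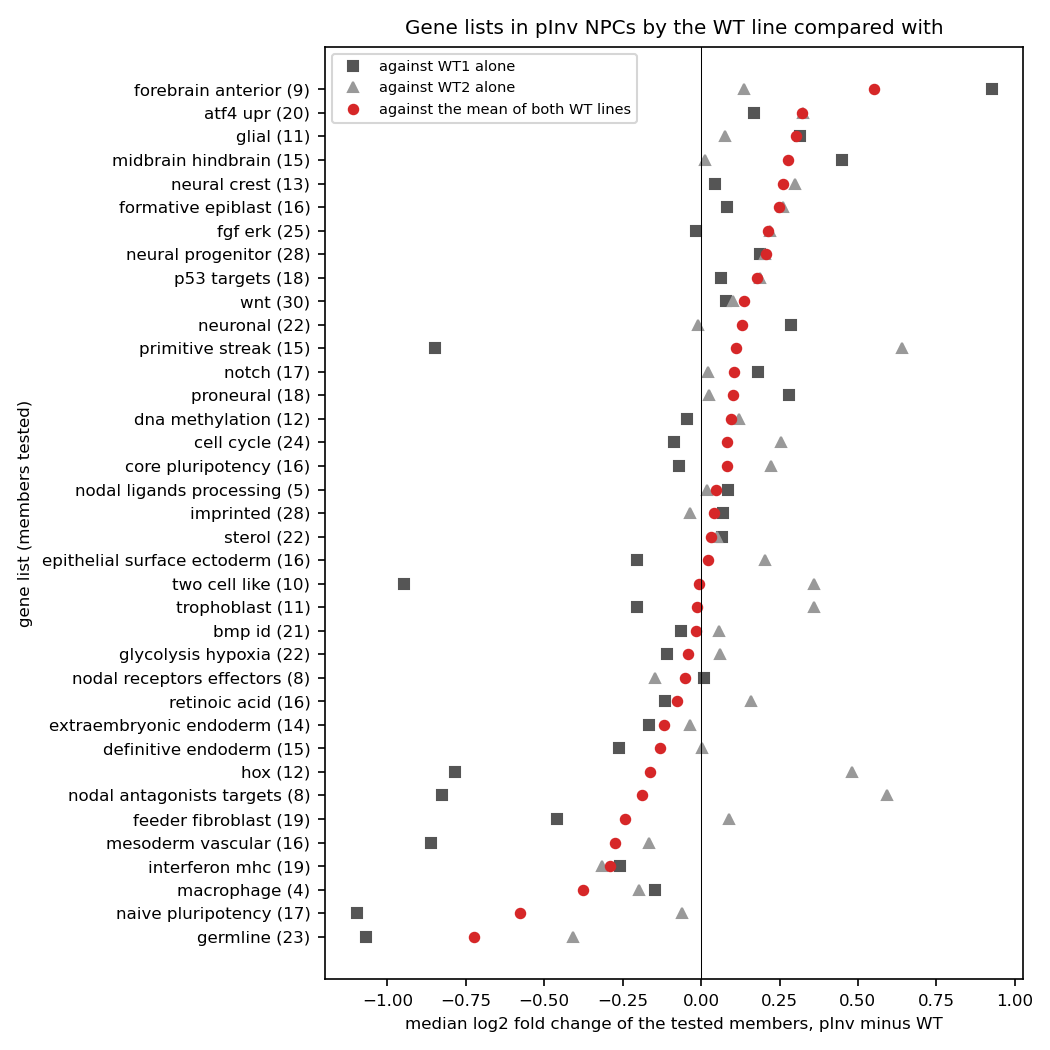
Median log2 fold change of the tested members of each gene list, pInv against both wild-type lines (circles), WT1 alone (squares) and WT2 alone (triangles). The naive list moves from -1.10 to -0.06 and the streak list from -0.85 to 0.64 with the line compared with.

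Interferon-inducible genes included several low values in pInv without a call. Of 19 tested, 0 were called by edgeR and 3 by DESeq2 (0.379% of all genes), with a median of -0.29. An unadjusted p under 0.05 was reached by 6, all lower (3.58% of all genes). In pInv 14 of the 19 were lower and 5 higher. All pInv libraries lay below every wild-type library for 4 of them (1.16% of all genes) and above for 1. Irgm1, an interferon-inducible GTPase outside that list and named after its values were seen, read 5.78 to 22.5 CPM in wild type and 2.54 to 3.99 CPM in pInv (log2 -1.81, adjusted p = 0.16). Oasl2, likewise named after its values were seen, read 2.42 to 12.5 CPM in wild type and 0.29 to 1.98 CPM in pInv (log2 -2.12, adjusted p = 0.328). Txnip, a glucose-responsive gene also named afterwards, read 222 to 726 CPM in wild type and 135 to 212 CPM in pInv (log2 -1.31, adjusted p = 0.33). Irgm1, Oasl2 and Txnip did not overlap between the groups, as 2.34% of all genes did not. They were picked with their values known, so that share is no test for them. Gbp2, an interferon-inducible GTPase, and Irf1, an interferon regulatory factor, both named afterwards, did overlap. Gbp2 read 2.10 to 12.2 CPM in wild type and 1.37 to 2.54 CPM in pInv, and Irf1 11.9 to 37.1 and 6.55 to 12.4 CPM. Among 37 lists holding 557 different tested genes, 65 genes (11.7%) had an unadjusted p under 0.05, against 6.99% of all genes. The lists were chosen with earlier results of these data known, so these shares are no test of enrichment.

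Markers of other cells were read as whole lists. The summed level of 21 feeder fibroblast genes was 520 to 713 CPM in pInv, 478 to 795 CPM in WT2 and 1014 to 1371 CPM in WT1. The summed level of 17 macrophage genes was 7.03 to 10.7 CPM in pInv and 7.78 to 14.2 CPM in wild type. Of the defining macrophage markers, Csf1r read 0 to 1.57 CPM in pInv and 0 to 1.05 CPM in wild type, Lyz2 0 to 0.48 and 0 to 0.23 CPM, C1qa 0 to 0.34 and 0 to 0.22 CPM, and Mpeg1 at most 0.07 CPM. Of the glial markers, Gfap read 0.07 to 1.37 CPM in pInv and 0 to 0.69 CPM in wild type, Olig1 0.66 to 1.37 and 0.21 to 1.26 CPM, and S100b 0 in all 9 libraries. The highest Csf1r, Lyz2, C1qa, Gfap and Olig1 values were all in pInv replicate 1. Of the feeder markers, Lum was at 0 in pInv and at most 0.15 CPM in wild type. Col1a1 read 8.67 to 19.96 CPM in pInv and 7.80 to 46.0 CPM in wild type. Thy1 read 9.58 to 15.4 CPM in pInv. Its mean was 12.5 CPM in WT1 and 17.4 CPM in WT2, whereas the means of Col1a1, Col1a2 and Col3a1 were higher in WT1. The summed feeder list was high in the same line, WT1, as Tdgf1, Sgk1 and Nanog. Its part in those differences was not tested.

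The 2 wild-type lines also differed from each other. Between WT2 and WT1, 15 genes were called (0.103%), 1 higher and 14 lower (0.0965%) in WT2. They included Tdgf1 (log2 -1.66), Sgk1 (-1.35), Igf2, an imprinted growth factor (-1.84), Myc, a growth regulator (-1.68), and Xist, the X-inactivation RNA (-2.17). On group means pInv lay nearer to WT2 than to WT1 for 14 of the 15, and for 9004 of all 14511 genes (62.0%). Against WT1 alone 38 genes were called (0.262%), and against WT2 alone 1, Platr11 (0.00689%). The difference between these counts was not tested.

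Chromosome 8 stood apart in the same way. The median log2 fold change of its 752 tested genes was 0.23 in pInv against wild type, with 82.6% higher. It was 0.42 against WT1, 0.04 against WT2, and 0.36 in WT2 against WT1. Of the 496 genes higher at an unadjusted p under 0.05, 148 lay on chromosome 8. No other autosome had a median beyond 0.1 in either direction, the next being chromosome 6 at -0.095. Sox1 and Tubb3 are chromosome 8 genes and differed from WT1 by 1.38 and 0.94 on the log2 scale. The part of the chromosome 8 shift in these differences was not tested. The 6 Y-linked genes tested were all lower in pInv, with a median of -1.20, and 0 were called. An unadjusted p under 0.05 was reached by 4 of them, all lower (3.58% of all genes). Their median was -0.87 against WT1 and -1.52 against WT2. Ddx3y, a Y-linked RNA helicase, read 5.40 to 15.1 CPM in wild type and 1.79 to 5.01 CPM in pInv.

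**Figure D4:**
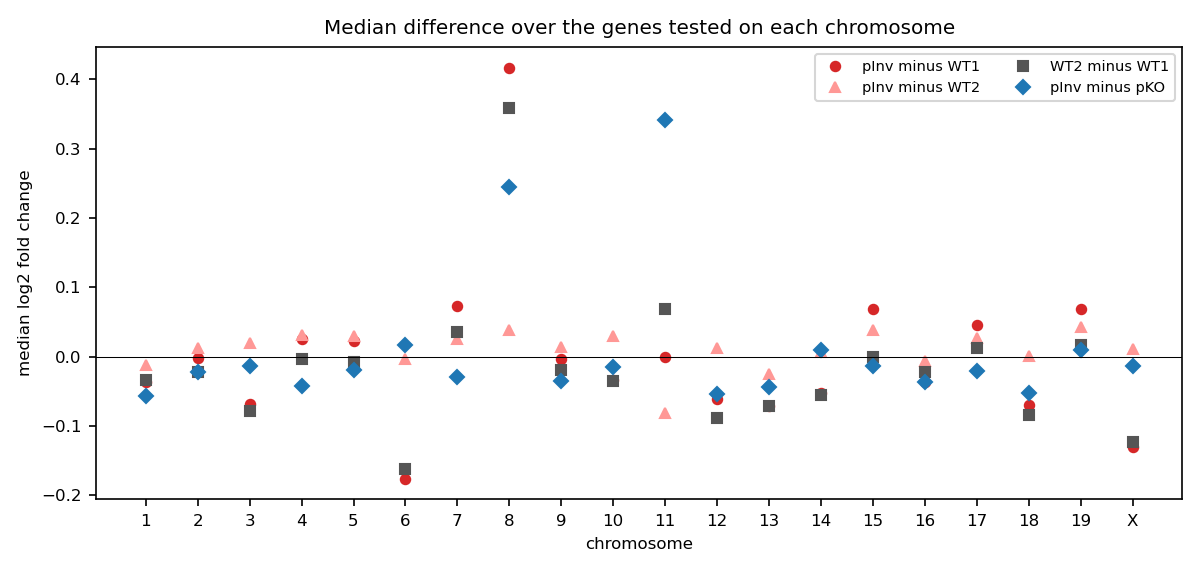
Median log2 fold change over the genes tested on each autosome and chromosome X, for 4 pairs of lines or groups. Chromosome 8 is high in pInv minus WT1 (0.42) and in WT2 minus WT1 (0.36) and near 0 in pInv minus WT2 (0.04), and chromosome 11 is high only in pInv minus pKO (0.34) among the pairs drawn.

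The difference between pInv and wild type was also compared between NPCs and serum-grown stem cells in one fit of 45 libraries. The interaction was called for 1 of 15679 genes (0.00638%), and 1017 genes (6.49%) had an unadjusted p under 0.05. The called gene was Cpt1a, the rate-limiting enzyme of mitochondrial fatty acid import. In NPCs Cpt1a read 3.96 to 8.46 CPM in WT1, 2.45 to 3.53 CPM in WT2 and 0.68, 0.73 and 2.35 CPM in pInv. The difference within NPCs was not called by edgeR (log2 -1.90, adjusted p = 0.338), though DESeq2 called it. It was -2.46 against WT1 alone and -1.34 against WT2 alone. In serum it read 28.0 to 43.0 CPM in wild type and 29.7 to 37.9 CPM in pInv. The pInv difference was lower in NPCs by 2.05 on the log2 scale (SE 0.36, adjusted p = 0.0228 by edgeR). For Eomes the interaction was 0.49 (95% interval -0.40 to 1.39, adjusted p = 0.898). In serum Eomes read 28.9 to 71.1 CPM in wild type and 26.0 to 44.9 CPM in pInv.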

How the data were processed

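Poly(A) RNA was sequenced from Lexogen SENSE mRNA libraries, per the labels' protocols. Per the submitters' processing notes, expected counts and TPM per gene were made with RSEM on mm9; the version is not given in the sources used here. The deposited expected counts (24990 rows) were rounded to whole numbers. The deposited TPM values were used only for levels of markers.

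Genes passing edgeR's filterByExpr were scaled by TMM and tested with the quasi-likelihood F test (edgeR 4.0.16, R 4.3.3), with 1 mean per line over the 15 NPC libraries, Benjamini-Hochberg adjustment and a threshold of 0.05. SEs are the fold change divided by the root of F. The interaction used 45 libraries. CPM values in serum and 2i were scaled over those 45 libraries, and CPM values in NPCs over the 15 NPC libraries. DESeq2 1.42.0 was an alternative. Procedures were tested on simulated data. Named genes were Eomes, Platr11, their neighbours, the 12 largest called changes each way (3 against pKO) with at least 1 CPM and no overlap between groups, and called list members; others are said to be chosen later. Members, lists (717 of 719 genes matched) and rules were chosen with earlier results of these data known. No 2 libraries agreed within sampling noise. Some genes that the rule names are not reported here.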

Additional observations from a re-analysis of the deposited data

Results flagged for a closer look

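Among 81 named genes at 1 CPM or more in at least 1 wild-type NPC library, 5 had 1 of the 6 libraries far from the others by Dixon's criterion, and chance flags about 1 in 20 such groups. T read 19.7 CPM and Col3a1, a fibrillar collagen, 11.7 CPM in WT1 replicate 2. Epas1 read 29.5 CPM and Oasl2 12.5 CPM in WT1 replicate 3. Six3, an anterior neural regulator, read 3.00 CPM in WT2 replicate 3 and 0.18 to 0.53 CPM in the other wild-type libraries, so it was included through that library alone, and it did not pass the low-count filter. In T, Col3a1, Epas1 and Oasl2 all pInv libraries lay below the far library.

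Cpt1a differed between states: its log2 difference between pInv and wild type was lower in NPCs than in serum by 2.05, that is -2.05 (adjusted p = 0.0228 by edgeR). Its call was kept on leaving out 11 of 18 libraries in turn, and lost without pInv replicates 1 or 2, WT1 replicates 1 or 3 or WT2 replicate 2 among the NPCs, or pInv replicates 1 or 2 in serum.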

How the results depend on the processing

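Calls between pInv and wild type numbered 2, and became 55 with DESeq2, 7 without the low-count filter, 7 with the replicate number as a block, 38 with WT1 only, 1 with WT2 only, 1 with the 9 libraries only, and 0 of 16097 with lines as replicates, where 301 had an unadjusted p under 0.05. Leaving out each library gave 1 to 6. Platr11 was called under every setting but lines as replicates. For pInv against pKO, 127 calls became 476 with DESeq2, 256 with the block, 17 with pKO1 only, 411 with pKO2 only and 52 without chromosomes 8 and 11 (chosen after seeing the data), and 16 to 111 on leaving out each library. For WT2 against WT1, 15 calls became 168 with DESeq2, 29 without the filter and 50 with the block, and 1 to 33 on leaving out a library. The interaction gave 11 calls with DESeq2, 20 with the block and 0 to 8 on leaving out a library. Eomes was called against wild type under no setting, with -0.25 to 0.15 on leaving out each library.

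Called list members numbered 1, and became 9 with WT1 only and 0 with WT2 only. The chromosome 8 median of 0.23 became 0.42 with WT1 only and 0.04 with WT2 only. With WT2 only as control, Fgf8 turned to 0.64, Sox1 to -0.03, Col1a1 to 0.21, Col1a2 to 0.12, Lefty2 to 0.46, Zscan4f to 0.25 and Dusp6 to 0.05, and with WT1 only Myc turned to -0.45 (log2); none was called there, and the cause was not tested. Libraries with the same replicate number correlated above 0.1 in 5 of 9 pairs of pInv and wild type, and 7 of 9 libraries correlated best with their own number. These correlations ran from -0.266 to 0.428 (median 0.105) and are not correlations of whole expression levels. The main fit did not use the numbers to pair libraries. The labels do not say what a shared number means, and an effect shared by replicates was not tested.

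The 4-day NPCs rest on 1 pInv line and 2 wild-type lines; lines are the unit the inversion was made in, and with lines as replicates the smallest group is 1. Low genes limit precision: the median SE was 0.24 on the log2 scale, and Platr11 at 0 has only a lower bound. The cause of the differences between settings was not tested.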
